A study of Mus musculus with 22 samples.

Results

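Long-term hematopoietic stem cells (LT-HSCs) of AHRFX mice were compared at 18 and at 2 months of age. The comparison used 11 of the 22 arrays of the series, chosen by their titles: 6 from mice of 18 months and 5 from mice of 2 months. AHRFX mice carry loxP-flanked alleles of Ahr, which encodes the aryl hydrocarbon receptor (AHR), and no Cre, so both ages hold the floxed but undeleted gene. They are the controls of AHRVav1 mice, in which a Vav1-driven Cre deletes Ahr in blood cells. One label field calls the cells of all mice Ahr-KO, while the genotype field and the titles call these 11 floxed, and the groups follow the genotype and titles.

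All mice were female. Bone marrow of each animal was depleted of lineage-positive cells, stained for the SLAM markers CD150 and CD48 together with CD34, cKit and Sca-1, and sorted as Lin-CD48-CD150+ LT-HSCs. The RNA of each animal was amplified on its own with a kit for picogram inputs and put on 1 whole-transcript mouse gene array. Signals are linear intensities, and differences are 18 minus 2 months in log2(signal + 16), where the 16 damps differences between values near background.

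LT-HSCs are mostly quiescent cells that renew themselves and give rise to all blood lineages. With age they become more numerous, are biased toward platelet and myeloid output, and produce fewer lymphocytes. AHR is a ligand-activated transcription factor known for inducing xenobiotic-metabolizing enzymes, and it also acts in the control of stem cell proliferation. The CD48-CD150+ gate is used because multipotent progenitors gain CD48 and lose CD150 as they leave the stem cell state.

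The arrays of the ages differed in background level, detection and similarity before any gene was compared. Background was taken in each array as the 95th percentile of 1401 probe sets for olfactory and vomeronasal receptors (Olfr, Vmn1r and Vmn2r), genes of sensory neurons that LT-HSCs are not known to use. This level was a signal of 28.4 ± 2.19 (SD, n = 6) at 18 months and 66.4 ± 8.95 (SD, n = 5) at 2 months. Of 26688 probe sets, 55.7% ± 2.15 (SD, n = 6) exceeded it at 18 months and 31.5% ± 2.83 (SD, n = 5) at 2 months. Neither measure overlapped between the ages (exact permutation p = 0.00216 each, two-sided, the smallest that 6 against 5 arrays allow). Pairs of arrays from 18-month animals correlated at 0.951 to 0.98, and pairs from 2-month animals at 0.682 to 0.774. A probe set had a median SD of 0.24 among the older and 0.48 among the younger animals on the log2 scale. No run or date of the arrays is given in the sources used here, so age and any difference in handling, amplification or hybridization cannot be told apart.

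**Figure D1:**
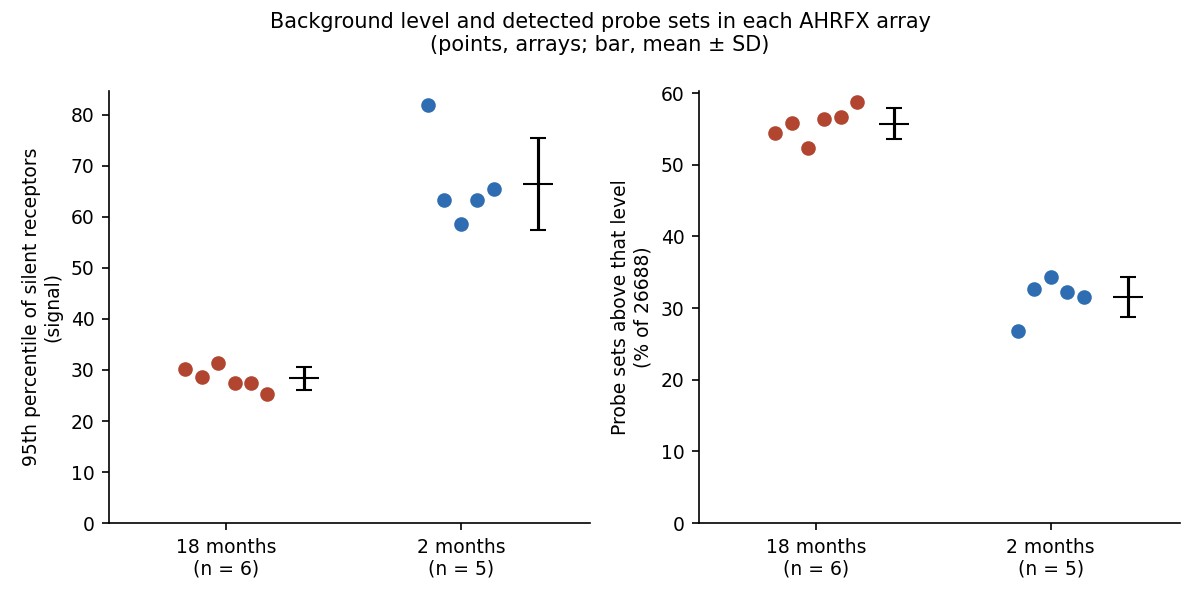
Left, the 95th percentile of receptor probe sets in each array (linear signal); right, the percent of 26688 probe sets above it. Points are arrays and bars mean ± SD; the 6 arrays of 18 months lie at signals of 25.2 to 31.3 and 52.3% to 58.7%, and the 5 of 2 months at 58.5 to 81.8 and 26.8% to 34.3%.

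A large share of probe sets was called, and the calls went both ways. Limma called 11850 of 26688 probe sets (44.4%), of which 5379 (20.2%) were higher and 6471 (24.2%) were lower at 18 months. The median difference over all probe sets was -0.11. Values of the ages did not overlap in 6480 probe sets (24.3%). With a separate variance for each age and no moderation, 6976 probe sets were called, 2997 higher and 3979 lower. Called probe sets include 494 receptor probe sets that were lower and 5 that were higher, with a median of -0.25 over the 1401, so a call at this threshold is also made among genes near background. The 4 genes measured as a check of sex, Xist, Uty, Kdm5d and Eif2s3y, were all called lower (-0.82, -0.68, -0.24 and -0.34). Of these 4, 3 exceeded background in no array. Uty and Kdm5d lost their call in 5 and 8 of 11 fits that left out 1 array. In RNA of a sorted pool, fewer cells that use a gene and less RNA per cell cannot be told apart.

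Because the background level of the 2-month arrays was the higher one, the number of arrays in which a gene exceeded it, and so was detected, is given for the genes named below, first of 6 at 18 months and then of 5 at 2 months. Of the probe sets, 3540 exceeded it in all 11 arrays, and 1578 of them were called (44.6%), 515 higher (14.5%) and 1063 lower (30.0%). This class requires more signal at 2 than at 18 months, and its split moved with the percentile used: at the 99th percentile, 516 were called, 266 higher and 250 lower. Another 1685 exceeded it in all 6 arrays of 18 months and in no array of 2 months, and 7 did so in all 5 arrays of 2 months and in none of 18 months. For such genes only a bound can be given, as the fold of the brighter age over the background level of the other ("at least"), and a gene given with such a bound was detected in every array of the brighter age and in none of the other. In 7839 probe sets no array exceeded background, and no fold is given for them.

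**Figure D2:**
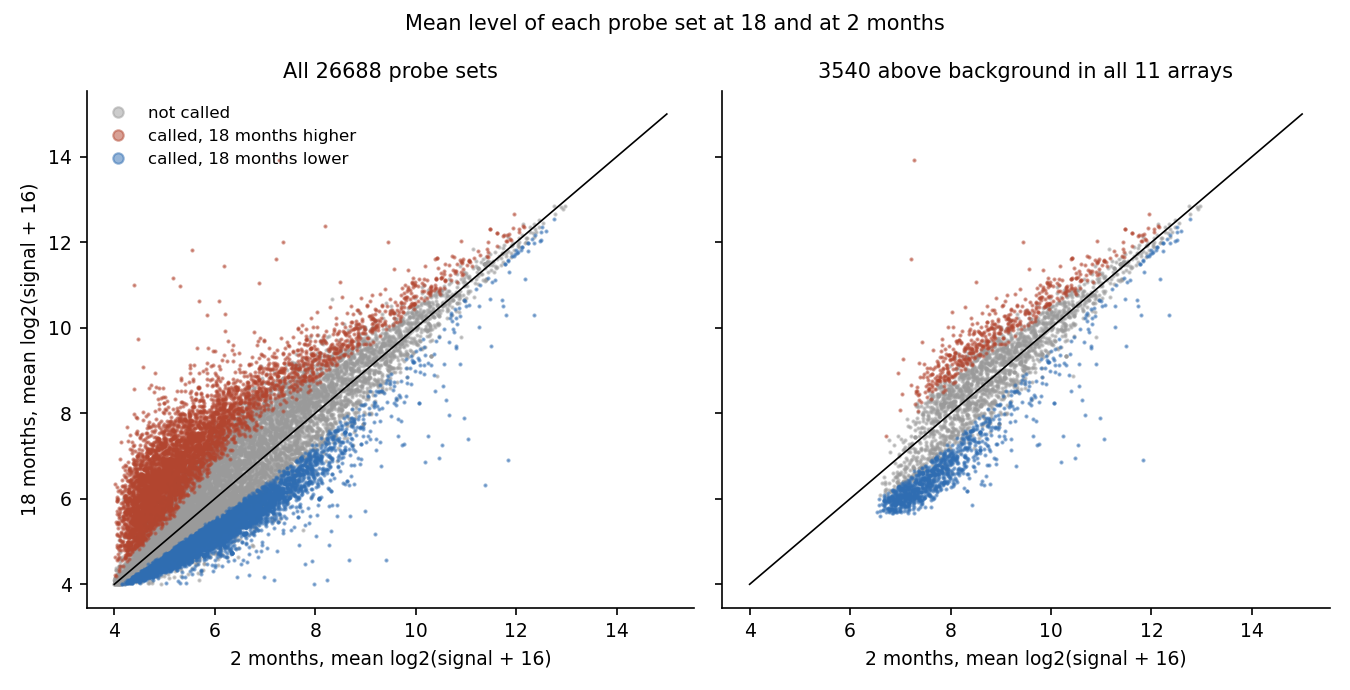
Mean log2(signal + 16) of each probe set at 18 months (vertical axis) against 2 months (horizontal axis), for all 26688 probe sets (left) and the 3540 above background in all 11 arrays (right). Red points were called higher at 18 months, blue points lower and grey points not called; the black line marks equal levels, and the spread around it narrows at high signals.

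For the lists of genes below, 1 probe set stood for each of 22025 genes, the one of highest mean signal. Of these genes, 21.0% were called higher and 24.5% lower at 18 months, but such shares depended on detection. Of 6698 probe sets detected in all 18-month and some younger arrays, 2155 were called higher and 260 lower. Of 1685 detected in all 18-month and no younger array, 1565 were higher and 2 lower. Of 3540 detected in all 11 arrays, 515 were higher and 1063 lower. Of 7839 detected in none, 128 were higher and 2905 lower. A list of mostly detected genes can thus exceed 21.0% higher without standing apart from other detected genes. Whether any list does so was not tested. The lists were compiled from known biology with earlier results of these data in view, so their counts are descriptions.

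Of the genes behind the sort itself, Cd48 was the one called. Cd48, the SLAM family receptor whose absence defines the gate, had signals from 168 to 512 with a median of 452 at 18 months, against 40.7, 23.4, 4.50, 219.5 and 3.10 at 2 months. It exceeded background in 6 of 6 arrays at 18 months and in 1 of 5 at 2 months, with a log2 difference of 2.98 (SE 0.60, limma adjusted p = 0.00232). The gate selects on surface protein, so its messenger RNA was not selected directly. Kit, the stem cell factor receptor, differed by 0.20 (SE 0.19, adjusted p = 0.400 by limma, detected in 6 and 5 arrays) at signals of 784 to 1196 and of 631 to 1087 in the younger animals. Cd34, a sialomucin of short-term progenitors, differed by 0.60 (SE 0.28, limma adjusted p = 0.0932, detected in 6 and 5 arrays), and it was called without 2-month animal 3 (0.83, limma adjusted p = 0.0173). Slamf1, which encodes CD150, had signals of 72.0 to 143 at 18 months, against 7.20, 120.2, 97.0, 411 and 186 at 2 months, and a log2 difference of 0.03 (SE 0.57, limma adjusted p = 0.968, detected in 6 and 4 arrays), which ran between -0.58 and 0.47 when 1 array was left out. Sca-1 was not analysed here, because no probe set carried its gene, Ly6a, as the single symbol.

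Among 33 measured genes of LT-HSC identity, 4 were higher and 3 lower, with a median difference of -0.01, and 29 exceeded background in all arrays of 18 months. With a variance for each age 2 were higher and 1 lower, and 6 were lower without 2-month animal 4. The higher ones included Fgd5, a guanine nucleotide exchange factor used as an HSC reporter (0.78, SE 0.18, limma adjusted p = 0.00546), above background in 5 of 6 arrays at 18 months and in none at 2 months. Ifitm1, an interferon-induced membrane protein of primitive cells, was lower and above background throughout: it had signals of 445 to 850.2 with a median of 664 at 18 months, against 1307, 1038, 1343, 1010.5 and 1079 at 2 months (-0.82, SE 0.20, limma adjusted p = 0.00592). Hlf, a transcription factor of HSC maintenance, had a median of 955 at 18 months, against 1684, 1180, 3796, 1379.8 and 1328 at 2 months (-0.77, SE 0.28, limma adjusted p = 0.0379, detected in 6 and 5 arrays). The call of Hlf was lost in 6 of 11 fits that left out 1 array, up to an adjusted p of 0.0779 by limma without 18-month animal 3, and without the 2-month animal 3, the highest, its difference was -0.48 (limma adjusted p = 0.0619). Hoxb5, a homeobox factor restricted to LT-HSCs, was lower by its main probe set (-1.12, SE 0.37, limma adjusted p = 0.0279, detected in 6 and 5 arrays), but a second gave -0.07 (limma adjusted p = 0.910), and the first lost its call without 2-month animal 2 (-1.0, adjusted p = 0.0534), 18-month animal 4 (-1.12, adjusted p = 0.0518) or 18-month animal 5 (-1.01, adjusted p = 0.0643). Esam, an endothelial adhesion molecule also found on HSCs, was higher (1.58, SE 0.51, limma adjusted p = 0.0242, detected in 6 and 2 arrays), and lost its call in 4 of those 11 fits, where its adjusted p reached 0.0577 without 2-month animal 5. With a variance for each age, Hlf, Hoxb5 and Esam were not called (adjusted p of 0.131, 0.0981 and 0.101).

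Ahr itself was low at both ages. Its signal was 23.6 to 97.2 with a median of 46.7 at 18 months, against 5.30, 5.30, 7.70, 7.0 and 2.00 at 2 months. The ages did not overlap, and 5 of 6 arrays of 18 months and 0 of 5 of 2 months exceeded background. The log2 difference was 1.60 (SE 0.22, limma adjusted p = 2.50e-04), and no fold is given because the 18-month mean lay under the background level of the younger arrays. Of 15 measured genes of the AHR pathway, 7 were higher and 3 lower (median 0.24). Arnt, the partner with which AHR binds DNA, and Hif1a, which shares that partner, were higher (1.80, SE 0.36, and 2.05, SE 0.38), each above background in all arrays of 18 months and in 1 of 2 months. A second probe set of Hif1a did not pass (0.14, limma adjusted p = 0.823), with means of 45.2 at 18 months and 57.7 at 2 months. Tiparp, an AHR-induced ADP-ribosyltransferase, was higher on both of its probe sets (1.69 and 1.48) and above background in 5 arrays of 18 months and none of 2 months. Cyp1a2, a classical AHR target, was called lower (-0.78, SE 0.15), but no array exceeded background, and the same held for Arnt2.

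Genes reported to be higher in aged HSCs were mostly higher here. Of 49 measured, 30 were called higher and 1 lower, with a median of 1.26, and 43 exceeded background in all arrays of 18 months, 14 in no array of 2 months. With a separate variance for each age, 12 were higher, and without the 18-month animals 1 and 2 the count was 20. Selp, the P-selectin of platelets and endothelium that marks aged HSCs, had signals of 214 to 597 with a median of 385 at 18 months, against 99.6, 33.6, 300.5, 39.7 and 122 at 2 months (1.93, SE 0.47, limma adjusted p = 0.00689, detected in 6 and 3 arrays). Vwf, von Willebrand factor, which marks platelet-biased HSCs, had signals of 299.9 to 957 with a median of 599, against 2.00, 85, 58.3, 611 and 29.2 at 2 months (2.87, SE 0.70, limma adjusted p = 0.00701, detected in 6 and 2 arrays). Both genes overlapped between the ages through 1 young animal, animal 3 for Selp and animal 4 for Vwf. Nupr1, a stress-responsive chromatin protein, behaved alike: 276 to 587 with a median of 441 at 18 months, against 25.1, 136, 3.50, 352 and 3.50 at 2 months (2.86, SE 0.69, limma adjusted p = 0.00623, detected in 6 and 2 arrays). Vwf and Nupr1 were not called when each age had its own variance.

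**Figure D3:**
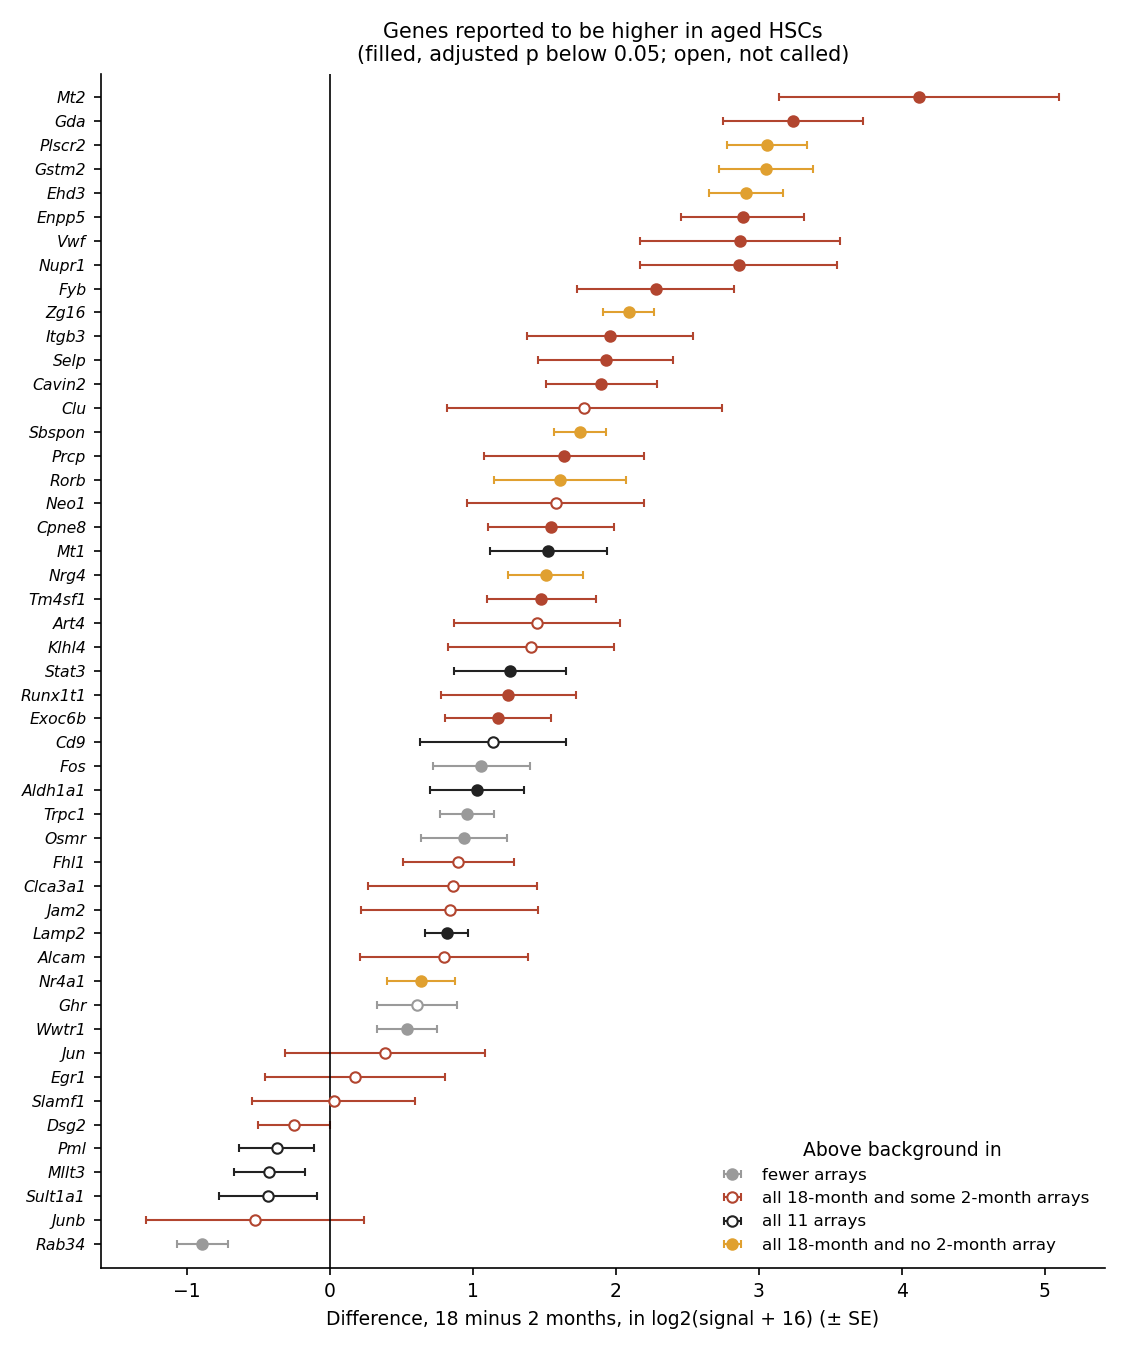
Differences (18 minus 2 months in log2(signal + 16), ± SE) of the 49 measured genes reported to be higher in aged HSCs. Filled points were called, open ones were not, and colours give the arrays in which the gene exceeded background; 30 filled points lie right of 0 and 1, Rab34, lies left of it.

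Several genes of that list exceeded background only at 18 months. Plscr2, a phospholipid scramblase, had signals of 186 to 375 with a median of 269 at 18 months, against 33.2, 13.7, 21.6, 11.8 and 7.40 at 2 months, and was at least 3.30-fold higher (limma adjusted p = 1.41e-05). Ehd3, a protein of endocytic recycling, was at least 2.28-fold higher (limma adjusted p = 1.19e-05), with 146 to 217 against 5.00, 3.60, 6.90, 28.7 and 7.0. Gstm2, a glutathione transferase, was at least 2.21-fold higher (limma adjusted p = 3.80e-05). These 3 were named for their small p, and in each the lowest 18-month array lay above the highest 2-month one. In the full list 14 of 49 genes did not overlap. Among all genes above background in every 18-month and no 2-month array, 78.2% did not. Aldh1a1, a retinaldehyde dehydrogenase, was above background in all 11 arrays, with signals of 618 to 1227 and a median of 776 at 18 months, against 763, 287, 216, 492 and 441 at 2 months. Its difference of 1.03 (SE 0.33, limma adjusted p = 0.0229) lost its call without 18-month animal 1 (0.92, adjusted p = 0.0509) or 2 (0.93, adjusted p = 0.0515), without both (0.76, adjusted p = 0.119) and with a variance for each age (adjusted p = 0.0722). Clu, a secreted chaperone often found higher in old HSCs, had signals of 207 to 713 at 18 months, against 0, 431, 618, 368 and 0 at 2 months, and did not pass (1.78, SE 0.96, limma adjusted p = 0.142, detected in 6 and 3 arrays). The younger animals split into 3 with clear signal and 2 listed at 0.

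The metallothioneins Mt1 and Mt2, which bind zinc and copper, were called higher. Mt1 had signals of 1164 to 2054 with a median of 1604 at 18 months, against 142, 851, 407, 816 and 963 at 2 months, above background in all 11 arrays (1.53, SE 0.41, limma adjusted p = 0.0109). Mt2 had 833 to 1618 with a median of 1282, against 3.50, 209, 5.50, 1372 and 0.700 at 2 months (4.12, SE 0.98, limma adjusted p = 0.00578, detected in 6 and 2 arrays). Animal 4 of 2 months thus reached the 18-month range, and the other 4 lay below it. Neither gene was called with a variance for each age (adjusted p of 0.0889 for Mt1 and 0.0842 for Mt2), nor Mt1 without 18-month animals 1 and 2 (1.35, limma adjusted p = 0.0569). Of 31 measured metallothionein and antioxidant genes, 12 were higher and 0 lower (median 0.57), 5 with a variance for each age. They included Gpx1, a glutathione peroxidase, higher by 0.42 (SE 0.06, limma adjusted p = 2.05e-04) with 4348 to 4765 against 3136 to 3684 and detected in all 11 arrays, and Hmox1, heme oxygenase, at least 1.69-fold higher (limma adjusted p = 2.30e-05).

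Of 2739 genes above background in every array, 45.4% were called, 13.9% higher and 31.5% lower, and 34.6% did not overlap between the ages. The 24 leading ones, chosen among those that were called and did not overlap, were of different kinds on either side. On the higher side stood immunoglobulin light chain segments, a granule enzyme, secreted or cytoskeletal proteins and genes of dividing cells. Igkv4-70, a kappa variable segment, had signals of 6502 to 38558 with a median of 16678 at 18 months, against 168, 135, 134, 121 and 136 at 2 months (6.66, SE 0.32, limma adjusted p = 5.90e-07). Igkv5-43, another kappa segment, had 1638 to 4692 with a median of 3287, against 164, 72.4, 145, 176 and 131 (4.40, SE 0.28, limma adjusted p = 4.08e-06), but its second probe set did not pass (1.42, limma adjusted p = 0.228). Variable segments resemble one another in sequence, so signal may be shared between them. Mpo, the myeloperoxidase of granulocyte progenitors, had 2704 to 5467 with a median of 4678, against 852, 1415, 777, 682 and 218 (2.56, SE 0.37, limma adjusted p = 3.02e-04). All 3 separated the ages in full, as the choice of leading genes required.

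The other 9 leading genes of that side differed by 1.81 to 2.35. Lgals1, the secreted lectin galectin-1, had signals of 931 to 1816 with a median of 1401 at 18 months, against 145, 266, 217, 472 and 223 at 2 months (2.35, SE 0.30, limma adjusted p = 1.24e-04). Lbr, the lamin B receptor of the inner nuclear membrane, had 625 to 998, against 119 to 232 (2.24, SE 0.26). Tgfb1, a cytokine that holds HSCs in quiescence, had 1019.5 to 1497 with a median of 1163, against 165, 243, 227, 785 and 489 (1.83, SE 0.34, limma adjusted p = 0.00155). The remaining ones were H2bc3, a replication-dependent histone, Ly6a2, a Ly6 family gene (2.20, with the 2-month animals spread from 87.7 to 816), Flna, filamin A, which crosslinks actin, Plac8, a protein of myeloid progenitors (1.81, SE 0.24), Rrm1, the large subunit of ribonucleotide reductase, and BC005537.

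On the lower side, most leading genes were small non-coding RNAs or their hosts. Snora44, a small nucleolar RNA, had signals of 75.3 to 226 with a median of 89.1 at 18 months, against 5112, 5309, 2972, 2024 and 3784 at 2 months (-4.93, SE 0.32, limma adjusted p = 4.08e-06). Scarna10 guides modification of spliceosomal RNA in Cajal bodies and had 49.0 to 253, against 722 to 2942 (-3.52, SE 0.45, limma adjusted p = 1.26e-04). Rny3, a Y RNA bound by Ro proteins, had 39.5 to 252 with a median of 114, against 1372, 1913, 1272, 1628 and 368 (-3.33, SE 0.49, limma adjusted p = 3.20e-04). The hosts Snhg20 and Snhg9 differed by -3.26 (SE 0.34) and -2.47 (SE 0.37), and Rnu3a, a U3 nucleolar RNA that acts in ribosomal RNA processing, by -2.30 (SE 0.52). None of these 6 overlapped between the ages, as the choice of leading genes required.

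Eif4a2, a translation initiation helicase, was the leading protein-coding gene of that side by 1 of its probe sets, and its probe sets disagreed. That probe set had signals of 87.2 to 219 with a median of 159.6 at 18 months, against 2603, 3364, 1693, 1678 and 1649 at 2 months (-3.66, SE 0.29, limma adjusted p = 6.17e-06). The other 2 gave -1.50 (limma adjusted p = 1.98e-04) and 0.37 (limma adjusted p = 0.417), with means of 1311 and 3561 and of 1807 and 1552 at 18 and 2 months. The gene as a whole therefore has no single direction here. The remaining lower genes were Odf3b and 1700029P11Rik, both of little-known function, Tnfaip8l3, a lipid transfer protein (-2.34, SE 0.35), 4732440D04Rik, and the microRNA gene Mir5125. In 4732440D04Rik the young animals ranged from 96.7 to 2216 while those of 18 months lay between 38.4 and 45.7, and its call was lost when each age had its own variance.

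**Figure D4:**
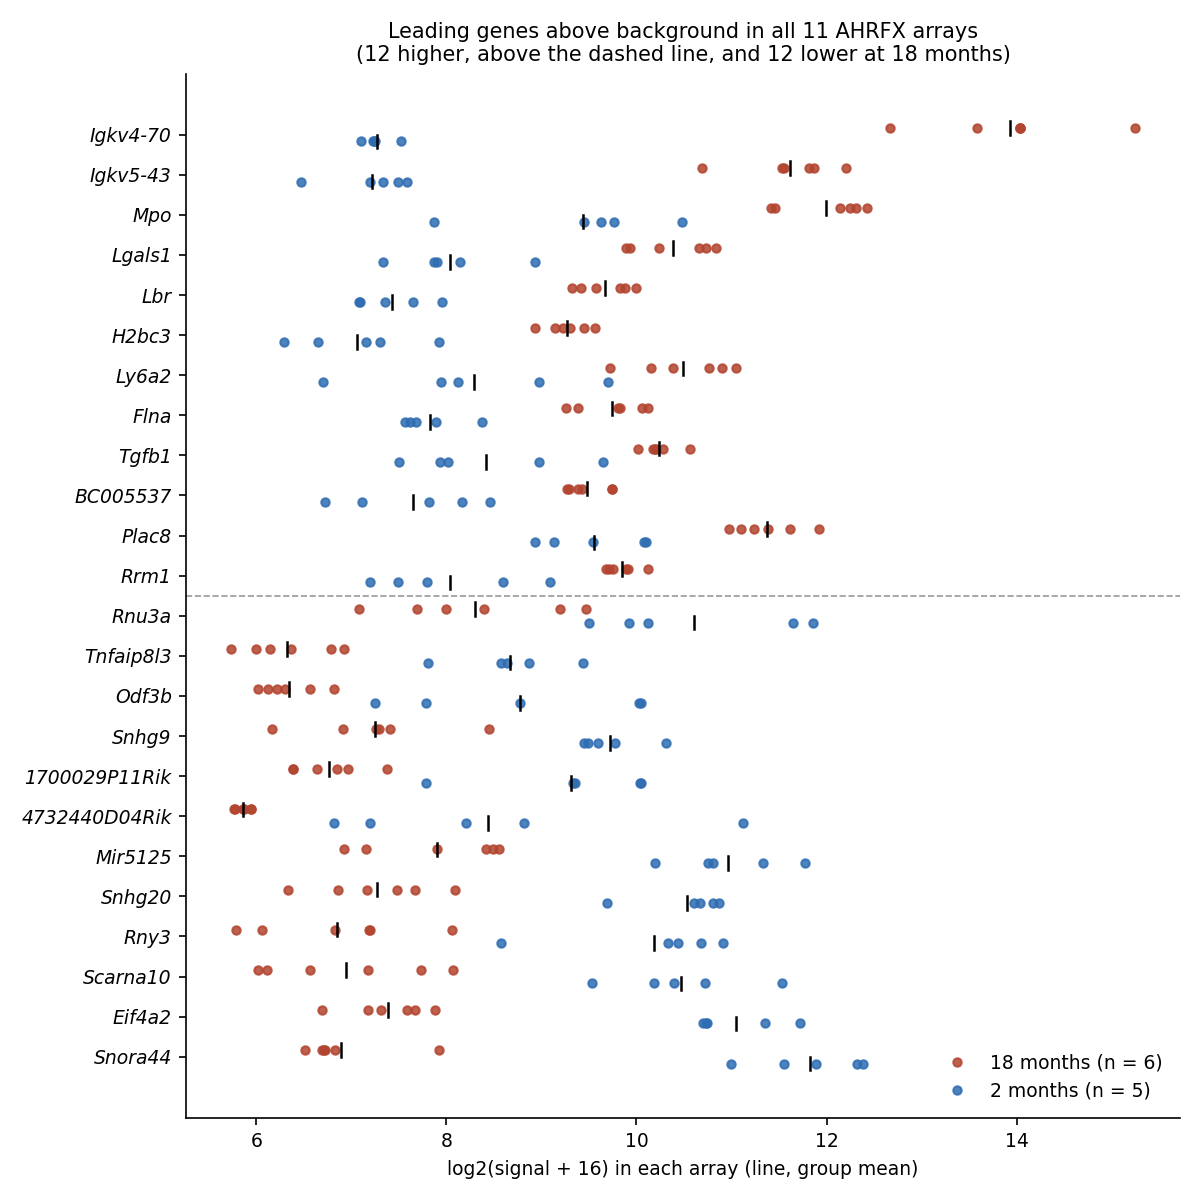
Values in each array, as log2(signal + 16), for the 12 higher and 12 lower genes with the largest difference among named genes above background in all 11 arrays whose ages did not overlap. Red points (upper row of each gene) are 6 arrays of 18 months, blue points 5 of 2 months, and lines are means; the genes run from Igkv4-70 (6.66) at the top to Snora44 (-4.93) at the bottom.

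MicroRNA genes are shown with their mature sequences because 2 of them, Mir5125 and Mir210, were among the leading lower genes. The array measures the gene's transcript and does not separate the mature strands. Capitals mark the seed, bases 2 to 8, with which a microRNA pairs to its targets, and the sequences are those of RefSeq (GRCm38.p6), written 5′ to 3′.
miR-210-3p, from the minus strand of chr7:141221407-141221428: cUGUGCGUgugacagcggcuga
miR-210-5p, from the minus strand of chr7:141221445-141221466: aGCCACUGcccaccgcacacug
miR-5125, from the plus strand of chr17:23823339-23823358: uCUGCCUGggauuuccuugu
The 3 seeds differ from one another. Mir210, whose product is known as a hypoxia-induced microRNA, had signals of 13.7 to 26.0 with a median of 22.6 at 18 months, all under background, against 1713, 171, 207, 867 and 1095 at 2 months, and was at least 13.3-fold lower (limma adjusted p = 1.71e-04). Mir5125 had 106 to 358 with a median of 275, against 3480.5, 1149, 1704, 2566 and 1773, above background in all 11 arrays (-3.06, SE 0.37, limma adjusted p = 8.96e-05).

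The families of small RNAs were looked at after these leading genes were seen. Of 78 small nucleolar RNA genes, 21 (26.9%, near the 24.5% of all genes) were lower and 4 (5.13%) higher (11 and 2 with a variance for each age), and their summed signal was 5862 to 8462 at 18 months, against 26698, 25382, 23042, 18431 and 27702 at 2 months. Of 483 microRNA genes, 149 (30.8%) were lower and 9 higher (median -0.29), where all genes had the share just given. With a variance for each age 96 were lower, 5 were higher without 18-month animal 4 or 2-month animal 5, and 325 of the 483 exceeded background in no array of 2 months. Among 15 snoRNA host genes 9 were lower and 0 higher, though 5 were lower without 18-month animal 4, 5 or 6. Predicted genes with numbered Gm names were lower in 37.2% of 1080 and Riken clone genes in 38.2% of 1591, against 3.52% and 5.97% higher. Above background in no array were 563 Gm, 743 Riken and 298 microRNA genes. Of all 7839 probe sets above background in no array, 2905 were called lower and 128 higher. Among genes above background in all 11 arrays, 48 of 101 Gm, 67 of 105 Riken and 28 of 43 microRNA genes were lower and 0 higher. Over all 2739 such genes, 862 were lower and 381 higher. Transcripts of these families are short, unspliced or poorly characterized, and how well each amplified was not measured.

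Genes above background in all arrays of 18 months and none of 2 months are given with bounds. Of 1475 such genes, 93.2% were called higher and 0.0678% lower (93.3% in all), which follows from how the class is defined. Ighm, the immunoglobulin heavy chain of IgM, had signals of 255 to 1322 with a median of 521 at 18 months, against 13.8, 10.4, 3.80, 9.0 and 4.30 at 2 months on 1 probe set, at least 6.65-fold higher (limma adjusted p = 1.42e-05). Its brightest probe set had 3254 to 6972, against 80.9, 4765, 433, 49.1 and 139.5 (4.20, SE 0.85, limma adjusted p = 0.00251, detected in 6 and 3 arrays), where animal 2 of 2 months reached the 18-month range, and it was not called with a variance for each age (adjusted p = 0.0620). Of its other 3 probe sets, 1 was called (2.24, limma adjusted p = 0.0103), and those at 0.93 and 1.40 were not (limma adjusted p = 0.429 and 0.107). Tgfbi, an extracellular matrix protein of monocytes induced by TGF-beta, was at least 5.99-fold higher (limma adjusted p = 6.25e-06), with 298 to 815 against 4.90, 16.9, 15.2, 13.5 and 11.8. Khsrp, which binds AU-rich RNA, Edem1, which acts in disposal of misfolded glycoproteins, Mcm5, a subunit of the replicative helicase, Asf1b, a histone chaperone of replication, Ahnak, a large scaffold protein, and Cx3cr1, the fractalkine receptor of monocytes, were at least 4.64 to 4.93-fold higher. Edem1 had a second probe set that 3 young arrays placed above background (2.24, limma adjusted p = 0.00967).

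In the opposite class, above background in all 5 arrays of 2 months and none of 18 months, named genes were few. Besides Mir210 they were Olfr474, an olfactory receptor, at least 6.75-fold lower (limma adjusted p = 1.80e-05), Scgb2b7, a secretoglobin, at least 9.19-fold, Ifna2, an alpha interferon, at least 7.01-fold, Gpr179, a retinal orphan receptor, at least 5.54-fold, and Meg3, an imprinted long non-coding RNA, at least 4.99-fold lower (limma adjusted p = 1.70e-04). Olfr474 is one of the receptors that set the background, and its signals at 2 months were 578, 249, 343, 459 and 73.5. Meg3, whose locus is active in HSCs, had 0.50 to 13.2 at 18 months, against 97.0, 103, 122, 508 and 525 at 2 months. Ifna2 was even among the young animals (199 to 381), while Scgb2b7 ranged from 83.8 to 1095.

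Cell cycle genes were mostly higher at 18 months. Of 29 measured genes of the G2 and M phases, 26 were higher and 0 lower (median 1.85), and all 29 exceeded background in every array of 18 months and 7 in none of 2 months. Of 34 S phase genes, 22 were higher and 0 lower (median 1.22). With a separate variance for each age the counts were 13 and 12. The summed signal of the G2 and M list was 11024 to 14384 at 18 months, against 2658, 4537, 3717, 6872 and 6798 at 2 months.

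Bub1b, a kinase of the spindle checkpoint, had signals of 235 to 579 with a median of 285 at 18 months, against 2.70, 30.0, 7.10, 16.8 and 17.2 at 2 months, at least 3.94-fold higher (limma adjusted p = 1.42e-05). Aurka, the aurora A kinase of centrosomes, was at least 2.38-fold higher (limma adjusted p = 1.80e-05) and Ect2, which drives cytokinesis, at least 1.67-fold (limma adjusted p = 1.05e-04). Among S phase genes, Chaf1a, a subunit of chromatin assembly factor, had 365 to 639 with a median of 470, against 20.0, 97.4, 38.7, 128 and 19.1 (2.93, SE 0.40, limma adjusted p = 2.06e-04, detected in 6 and 2 arrays). Cdc6, which loads the replicative helicase, differed by 2.96 (SE 0.42, limma adjusted p = 2.73e-04) and the flap endonuclease Fen1 by 2.48 (SE 0.42, limma adjusted p = 8.28e-04), both detected in 6 and 1 arrays. Every gene of this paragraph was named for its small p within its list, and each separated the ages without overlap. In the full lists, 18 of 29 G2 and M and 16 of 34 S phase genes did not overlap, against 25.1% of all genes.

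Of 23 genes of quiescence and CDK inhibition, 11 were higher, 1 was lower and 11 were not called (median 1.19), and 8 were higher with a variance for each age. Cdkn1b, which encodes the inhibitor KIP1, had signals of 239 to 372 with a median of 280.5 at 18 months, against 8.0, 78.7, 111, 77.1 and 36.1 at 2 months (2.17, SE 0.40, limma adjusted p = 0.00150, detected in 6 and 3 arrays). Cdkn2c, an inhibitor of the cyclin D kinases, was at least 3.24-fold higher (limma adjusted p = 3.89e-05), with 215 to 293 against 3.10, 30.9, 41.6, 5.70 and 0.300. Tsc2, which restrains mTOR, and Ccng2, an atypical cyclin of arrested cells, were at least 1.57 and 1.79-fold higher. Cdkn1c, which encodes KIP2 and holds HSCs in quiescence, was dim: 24.9 to 62.6 at 18 months, against 0.400, 28.0, 4.50, 5.80 and 2.70 (1.33, SE 0.25, limma adjusted p = 0.00166), above background in 5 arrays of 18 months and none of 2 months.

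Cdkn2a, the locus of the senescence inhibitors INK4a and ARF, was the lower member. It had signals of 225 to 320.5 with a median of 253 at 18 months, against 485, 400.1, 407, 358 and 423 at 2 months, above background in all 11 arrays and without overlap. The difference was -0.63 (SE 0.23, limma adjusted p = 0.0381). The call was lost when any of the 18-month animals 1, 2, 4, 5 or 6 or the 2-month animal 5 was left out, with differences between -0.69 and -0.57 over all 11 such fits and an adjusted p of up to 0.0724 by limma. It was kept when each age had its own variance (adjusted p = 0.00294).

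Of 31 genes for crosslink repair and homologous recombination, most of them dim, 19 were higher and 1 lower (median 1.05), and 12 were higher with a variance for each age. Blm, a helicase that resolves recombination intermediates, had signals of 107 to 183 with a median of 141 at 18 months, against 2.80 to 12 at 2 months, at least 1.88-fold higher (limma adjusted p = 5.38e-06). Fancd2, the Fanconi protein that is ubiquitinated at crosslinks, was at least 1.26-fold and Brca2, a protein of homologous recombination, at least 1.10-fold higher (limma adjusted p = 8.20e-06 and 8.40e-05). Atm, the kinase that signals double-strand breaks, was at least 1.29-fold higher (limma adjusted p = 4.03e-04). Of the 31 genes, 13 exceeded background in no array of 2 months.

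Of 47 chromatin and DNA methylation genes, 18 were higher and 1 lower (median 0.75, and 9 higher with a variance for each age). Ezh2, the methyltransferase of Polycomb repressive complex PRC2, had signals of 467 to 573 with a median of 499 at 18 months, against 74.4, 30.4, 42.9, 65.1 and 62.5 at 2 months (2.92, SE 0.27, limma adjusted p = 1.32e-05). Its partner Eed had 305 to 484, against 13.4, 155, 51.0, 14.5 and 19.5 (2.92, SE 0.44, limma adjusted p = 3.69e-04). Both were detected in 6 and 1 arrays. In AHRVav1 mice the age difference of Eed was 0.25, though the difference between the genotypes was not called for any chromatin gene named here. Phc3, a PRC1 subunit, was at least 1.51-fold higher (limma adjusted p = 4.76e-05), and Tet3, a methylcytosine dioxygenase, was called higher (1.24, SE 0.23) at signals of 34.5 to 87.7 around the young background level, detected in 6 and 0 arrays.

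In the signalling lists, more genes were called higher than lower, with 31.2% to 53.8% higher against 21.0% over all genes. The same excess of higher calls held for all probe sets detected in every 18-month array but not in every 2-month array, as given above. Of 35 BMP and TGF-beta genes, 15 were higher and 2 lower (median 0.70), and 15 exceeded background in no young array. Smurf2, a ubiquitin ligase that removes SMADs and receptors, had signals of 164 to 252 with a median of 215 at 18 months, against 11.2, 22.6, 87.7, 27.6 and 25.6 at 2 months (2.31, SE 0.33, limma adjusted p = 2.55e-04, detected in 6 and 1 arrays). The receptors Bmpr1a (29.3 to 67.4 against 0, 0.300, 2.50, 0.600 and 0) and Acvr1 and the ligand Bmp4 were called higher and above background at 18 months alone, but their 18-month means lay under the background level of the young arrays, so no fold is given. Ski, a SMAD corepressor, was at least 1.05-fold higher (limma adjusted p = 2.87e-04).

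Of 26 genes of inflammation and NF-kB, 14 were higher and 2 lower (median 1.0), and 9 were higher with a variance for each age. Myd88, the adaptor of Toll-like and interleukin-1 receptors, had signals of 135 to 214 with a median of 169 at 18 months, against 0.600, 23.6, 83.1, 19.5 and 8.80 at 2 months (2.38, SE 0.38, limma adjusted p = 6.11e-04, detected in 6 and 1 arrays). Il6ra, the interleukin-6 receptor, had 79.3 to 614, against 0.700, 84.1, 11.6, 10.6 and 15.7 (3.24, SE 0.57, limma adjusted p = 0.00112, detected in 6 and 1 arrays). Relb, an NF-kB subunit, went the other way in all 11 arrays, with 48.5 to 69.6 and a median of 55.9, against 212, 219.5, 164, 156 and 185 (-1.47, SE 0.23, limma adjusted p = 5.21e-04). Nfkb2, whose product pairs with RelB, was at least 1.02-fold higher (limma adjusted p = 0.00278).

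Of 31 interferon response genes, 11 were higher and 1 lower (median 0.35), and 3 were higher with a variance for each age. Oas3, an antiviral synthetase, Ifit2, which binds viral RNA, and Rsad2, the antiviral enzyme viperin, were at least 1.0, 1.34 and 1.07-fold higher, so these calls rest on signals at the edge of background, and that of Rsad2 was lost with a variance for each age (adjusted p = 0.0603). Of 32 AP-1 and immediate early genes, 10 were higher and 3 lower (median 0.28), and 6 were higher without 18-month animal 1, 2, 4 or 6 or without 2-month animal 5. With a variance for each age 3 were higher, and 5 were lower without 2-month animal 4. Klf4, a zinc finger factor, was at least 2.24-fold higher (limma adjusted p = 5.05e-05). Dusp1, a phosphatase that ends MAP kinase signals, was lower, with 36.4 to 64.2 against 206, 105, 229, 64.1 and 152 (-1.30, SE 0.31, limma adjusted p = 0.00635), and Myc, a growth regulator, was higher, with 624 to 950.4 against 353, 337, 778, 275 and 427 (0.95, SE 0.27, limma adjusted p = 0.0132), both above background in all 11 arrays. Myc was not called with a variance for each age (adjusted p = 0.0544) or without 18-month animals 1 and 2 (0.88, limma adjusted p = 0.0611).

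Of 33 heat shock and protein folding genes, 18 were higher, 3 lower and 12 not called (median 0.90). Calr, Canx and Hspa5, chaperones of the endoplasmic reticulum, were among the higher ones. Calr, calreticulin, had signals of 2354 to 3018 with a median of 2485 at 18 months, against 403, 1168, 1424, 984 and 887 at 2 months (1.51, SE 0.25, limma adjusted p = 7.33e-04). Its membrane-bound relative Canx had 1850.5 to 2216, against 719.8, 1242, 1346, 974 and 1011 (0.93, SE 0.15, limma adjusted p = 7.30e-04). Hspa5, the chaperone BiP, had 1177 to 1859 with a median of 1669, against 843, 878, 796, 724 and 873 (0.90, SE 0.16, limma adjusted p = 0.00140). All 3 were named for their small p and exceeded background in 11 of 11 arrays without overlap. In the full list 14 of 33 genes did not overlap, and 34.6% of all genes detected in every array did not. Atf6, a sensor of unfolded protein, was at least 1.87-fold higher (limma adjusted p = 6.40e-05).

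Oxidative phosphorylation and ribosomal genes were mostly bright. Of 53 oxidative phosphorylation genes, 13 (24.5%) were higher and 2 lower (median 0.45), a share close to that of all genes, and 6 were higher with a variance for each age. The summed signal of the list did not overlap between the ages, at 45148 to 50352 at 18 months and 35132 to 38815 at 2 months. This was not particular to the list. The sum of the housekeeping genes did not overlap either, at 37588 to 42249 and 30392 to 36114, nor did those of several other lists. Atp5a1 and Atp5b, subunits of the catalytic part of ATP synthase, were higher by 1.03 (SE 0.16) and 1.11 (SE 0.21), with signals of 1807 to 2241 against 709.5 to 1444 and of 1967 to 2244 against 554 to 1562, both detected in all 11 arrays. Of 46 cytosolic ribosomal proteins, 5 were higher and 9 lower (median -0.07), with 38 above background in all 11 arrays. Without 2-month animal 2 or 4, 18-month animal 1, 2 or 6, or with a variance for each age, 3 were higher. Rpl10a had 2024 to 2428, against 2949.9, 2841, 3227, 3066 and 3040.1 (-0.46, SE 0.08, limma adjusted p = 7.47e-04, detected in 6 and 5 arrays), and Rps12, also detected in 6 and 5 arrays, was higher by 0.24 (SE 0.06, limma adjusted p = 0.00549) on its brightest probe set. The call of Rps12 was lost without a mean-variance trend (limma adjusted p = 0.0787), a second probe set gave 0.39 (limma adjusted p = 0.00717), and 6 further ones gave 0.11 (limma adjusted p = 0.174 each). The summed signal of the ribosomal list overlapped, at 107896 to 125464 and 117739 to 122734. Of 19 housekeeping genes 7 were higher and 0 lower (median 0.40), 3 with a variance for each age, among them Actg1, cytoplasmic actin (0.64, SE 0.10), and Eef2, an elongation factor (0.56, SE 0.09), both detected in all 11 arrays.

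Of 26 polarity and Wnt genes, 10 were higher and 6 lower, with a median of 0.00, and 6 were higher with a variance for each age. Cdc42, a GTPase whose activity rises in aged HSCs and disturbs their polarity, had signals of 2259 to 2768 with a median of 2395 at 18 months, against 1587, 1259.8, 1447, 1354 and 1957 at 2 months (0.68, SE 0.12, limma adjusted p = 0.00108, detected in 6 and 5 arrays). Its second probe set gave 1.14 (limma adjusted p = 0.00112). Apc, which scaffolds beta-catenin destruction, was at least 1.43-fold higher (limma adjusted p = 4.90e-04), while Wnt4, a ligand, was lower, with 30.7 to 41.8 against 96.7, 79.6, 59.3, 51.3 and 92.2 (-0.84, SE 0.21, limma adjusted p = 0.00689, detected in 6 and 4 arrays). The signals of Wnt4 lay near the background level of each age, which was itself lower at 18 months (28.4 against 66.4).

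Of 33 receptors for niche adhesion and homing, 14 were higher and 2 lower (median 0.92), and 9 were higher with a variance for each age. Notch2, a receptor that holds progenitors undifferentiated, had signals of 369 to 565 with a median of 445 at 18 months, against 69.3, 273, 80.5, 64.9 and 26.7 at 2 months (2.28, SE 0.41, limma adjusted p = 0.00129, detected in 6 and 3 arrays). Pecam1, an adhesion molecule of endothelium and HSCs, had 120.4 to 207, against 13.8, 18.2, 40.6, 80.2 and 23.7 (1.95, SE 0.32, limma adjusted p = 6.92e-04, detected in 6 and 1 arrays). Itgal, the alpha chain of the leukocyte integrin LFA-1, was at least 2.05-fold higher (limma adjusted p = 5.05e-04). Itgav, the alpha V integrin chain, had probe sets of opposite sign (1.41, detected in 6 and 0 arrays, and -1.13, detected in 6 and 5, both called), so it has no direction here.

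Lymphoid priming was not uniformly lower. Of 20 measured genes, 7 were higher and 3 lower (median 0.50), and 5 were lower without 2-month animal 2. Satb1, a chromatin organizer of lymphoid fate, had signals of 46.5 to 96.5 with a median of 72.2 at 18 months, against 8.90, 5.90, 11.5, 3.70 and 2.40 at 2 months, at least 1.04-fold higher (limma adjusted p = 3.25e-05). Dntt, the terminal transferase of early lymphocytes, was at least 1.36-fold higher (limma adjusted p = 7.04e-05) and Notch1 at least 1.45-fold (limma adjusted p = 0.00171). Il7r, the interleukin-7 receptor, reached 65.4 in the highest 18-month array and exceeded background in 4 of 6, against at most 0.800 and no array at 2 months (1.43, SE 0.29, limma adjusted p = 0.00275). Flt3, a receptor of multipotent progenitors, did not pass (1.08, SE 0.49, limma adjusted p = 0.0859, detected in 6 and 1 arrays), but was called without 2-month animal 4 (1.56, limma adjusted p = 0.0055). Ccr7, a homing receptor, was lower, with 16 to 34.3 against 148, 124, 82.3, 45.1 and 51.2 (-1.27, SE 0.28, limma adjusted p = 0.00378, detected in 2 and 3 arrays). Signals of Ccr7 lay around a background level that was itself lower at 18 months (28.4 against 66.4).

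Genes of fetal HSCs and growth-restricting imprinted genes were few above background. Of 11 fetal-type genes, 1 was higher and 3 lower (median -0.46), and 3 exceeded background in no young array. Hmga2, a chromatin protein of fetal HSC self-renewal, had signals of 41.8 to 113 with a median of 71.2 at 18 months, against 160.1, 196, 138, 92.3 and 282 at 2 months (-1.04, SE 0.32, limma adjusted p = 0.0204, detected in 6 and 5 arrays), and lost its call without 18-month animal 4 (-0.92, adjusted p = 0.0505). Of 20 imprinted genes, 3 were higher and 5 lower (median -0.01), and 3 were lower without 18-month animal 3, 4 or 6 or 2-month animal 5. Igf2r, a receptor that clears the growth factor IGF2, was at least 1.31-fold higher (limma adjusted p = 2.88e-05).

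Markers of other marrow cells also differed, and their part in the results above was not tested. Of 20 granulocyte genes, 9 were higher and 1 lower (median 1.02), and their summed signal was 8404 to 19496 with a median of 15697 at 18 months, against 18298, 11397, 4392, 3196 and 2628 at 2 months. The first 2 young animals thus lay within the 18-month range and the other 3 below it. Prtn3, a neutrophil protease, had 1386 to 2329.7, against 526, 521, 976, 656 and 269 (1.62, SE 0.28, limma adjusted p = 9.06e-04, detected in 6 and 5 arrays). Of 21 monocyte and macrophage genes, 13 were higher and 3 lower (median 1.07), with sums of 7319 to 13267 against 6689, 5418, 5805, 5474 and 4118. Csf1r, the receptor of macrophage colony-stimulating factor, was at least 3.10-fold higher (limma adjusted p = 2.30e-05), with 136 to 372 against 0.100, 10.5, 7.80, 21.4 and 11.9.

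Of 19 megakaryocyte and platelet genes, 10 were higher and 0 lower (median 1.12), and 4 were higher with a variance for each age. Pf4, platelet factor 4, had signals of 1168 to 1736 with a median of 1471 at 18 months, against 256, 243, 261, 592 and 1122 at 2 months (1.79, SE 0.36, limma adjusted p = 0.00233, detected in 6 and 5 arrays). Itga2b, the integrin chain CD41 of platelets and platelet-biased HSCs, had 166 to 477 with a median of 224, against 38.4, 109, 55.4, 61.0 and 38.3 (1.86, SE 0.35, limma adjusted p = 0.00168, detected in 6 and 1 arrays). Of 14 measured erythroid genes, 9 were higher and 0 lower (median 1.24), 5 with a variance for each age. Car1, a carbonic anhydrase of red cell precursors, had 745 to 2065 with a median of 1291, against 19.1, 121, 13.6, 130.1 and 14.8 (4.46, SE 0.50, limma adjusted p = 5.05e-05, detected in 6 and 2 arrays), and Klf1, the erythroid master regulator, was at least 1.60-fold higher (limma adjusted p = 0.00501).

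Of 14 mast cell and basophil genes, 5 were higher and 0 lower (median 0.45), 2 with a variance for each age, with Hdc, histidine decarboxylase, at least 1.84-fold higher (limma adjusted p = 1.19e-05). Mcpt8, a basophil protease, had signals of 204 to 926 with a median of 516 at 18 months, against 519.7, 7.80, 138, 104 and 10.5 at 2 months (2.45, SE 0.72, limma adjusted p = 0.0163, detected in 6 and 3 arrays), with animal 1 of 2 months inside the older range. It was not called with a variance for each age (adjusted p = 0.101). Of 13 genes of short-term HSCs and multipotent progenitors, 8 were higher and 1 lower (median 1.08), and 5 were higher with a variance for each age. Cd53, a tetraspanin of leukocytes, had 324 to 1326, against 123, 268, 276, 194 and 302 (1.61, SE 0.40, limma adjusted p = 0.00774, detected in 6 and 5 arrays).

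Lymphocyte and stromal markers were mixed. Of 17 B cell genes, 3 were higher and 3 lower (median -0.11, and 0 higher with a variance for each age), 5 being lower without 2-month animal 2, and their sum of 4264 to 7965 at 18 months, against 648, 5786, 2036, 1538 and 1035 at 2 months, came mainly from Ighm. Pax5, the B lineage factor, and Ms4a1, which encodes CD20, exceeded background in no array of 18 months and in 1 and 0 arrays of 2 months. The 16 immunoglobulin genes, grouped after the leading genes were seen, had 8 higher and 0 lower members and sums of 12521 to 71720, against 578, 5454, 865, 2152 and 642. Of 22 T and NK cell genes, 7 were higher and 4 lower (median 0.18). Nkg7, a granule protein of cytotoxic cells, had 242 to 753 with a median of 662, against 0.200, 136, 1.30, 2.20 and 232 (3.57, SE 0.73, limma adjusted p = 0.00258, detected in 6 and 2 arrays). Of 23 endothelial and stromal genes, 5 were higher and 3 lower (median -0.00, and 3 higher without 18-month animal 4 or 6).

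**Figure D5:**
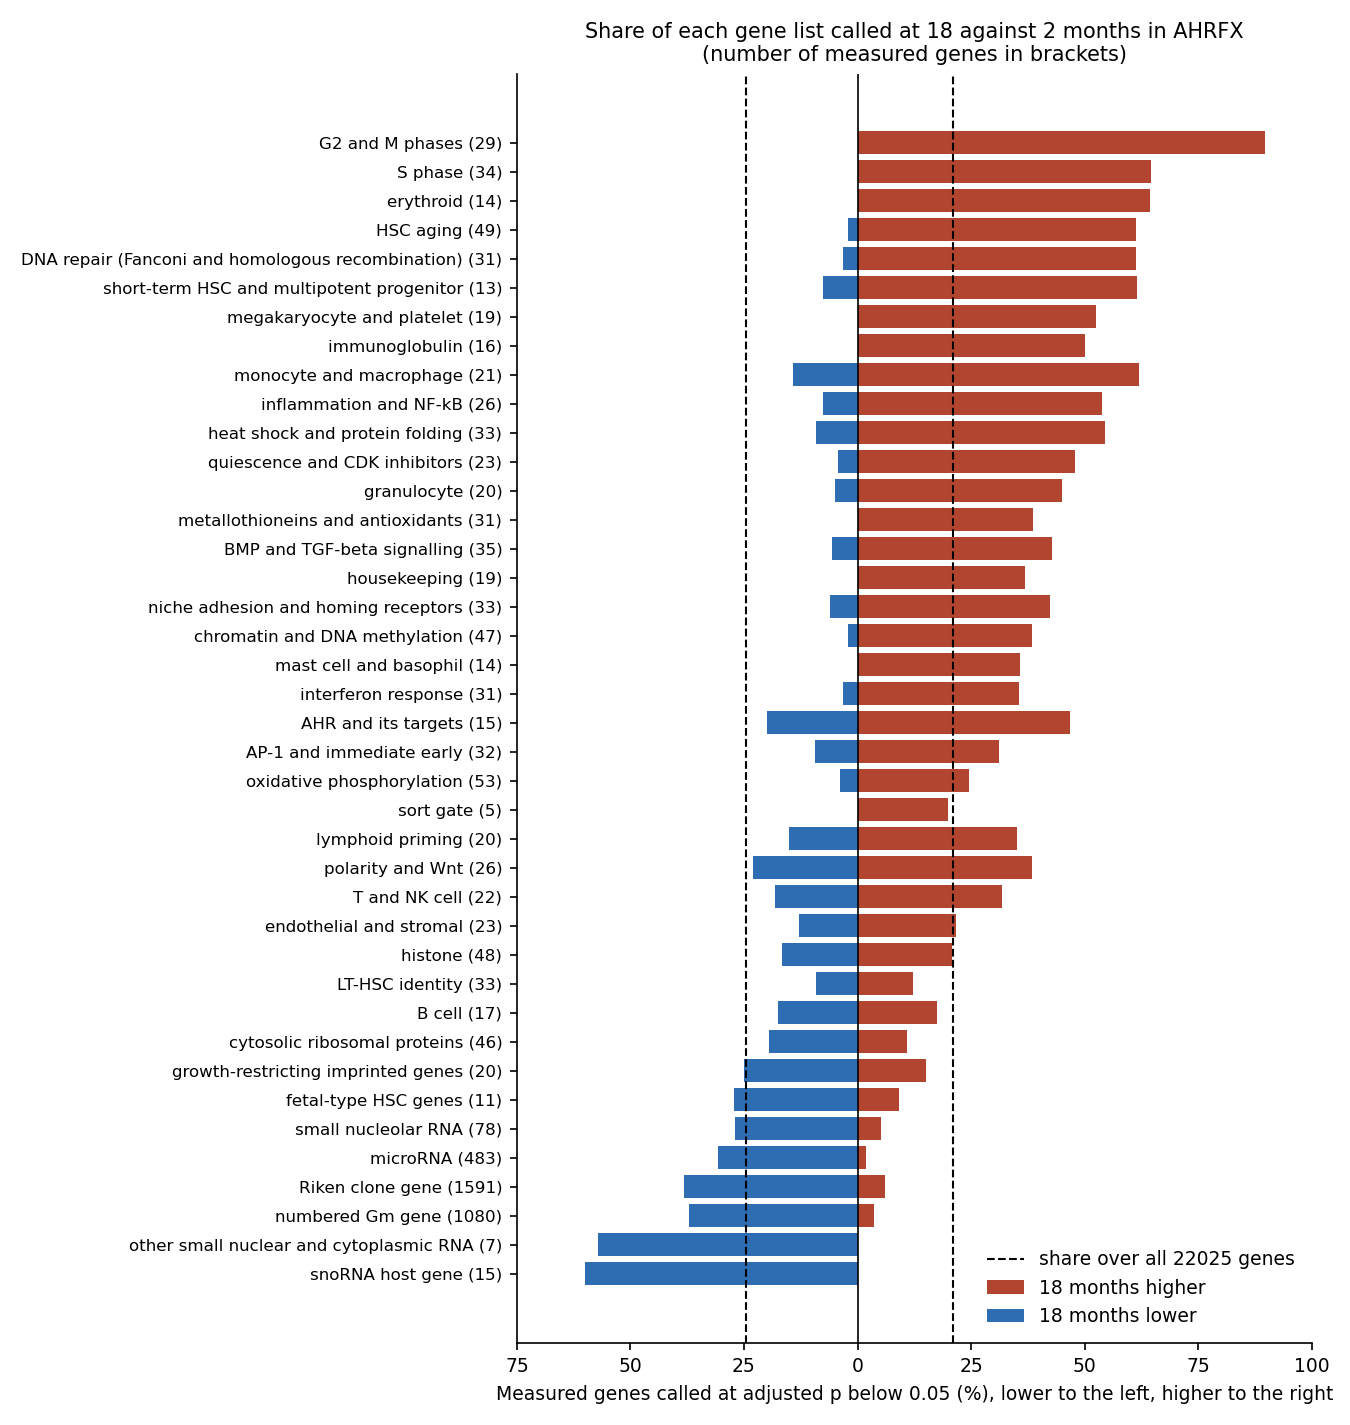
Percent of the measured genes of each list called lower (blue, to the left) or higher (red, to the right) at 18 months, with the number of measured genes in brackets. The 4 genes measured as a check of sex are not shown. Dashed lines mark the shares over all 22025 genes, detected or not, 24.5% lower and 21.0% higher. The G2 and M phases stand at the top with 26 of 29 higher, and snoRNA hosts at the bottom with 9 of 15 lower.

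The age difference was set beside that of AHRVav1 mice, whose 11 arrays are other animals. There, 13051 of 26688 probe sets were called (48.9%). In both genotypes 8205 were called the same way, 69.2% of the AHRFX calls and 62.9% of the AHRVav1 calls, and 6 were called in opposite directions. The array difference between ages stood in both genotypes: background levels were 26.6 to 30.5 at 18 months and 68.7 to 95.7 at 2 months in AHRVav1. All 24 leading genes above background in every array had an age difference of the same sign in AHRVav1. Its size was nearly equal for some, as for Igkv4-70 (6.66 in AHRFX and 6.60 in AHRVav1) and Plac8 (1.81 and 1.79). It was smaller in AHRVav1 for others, as for Igkv5-43 (4.40 and 3.13), Ly6a2 (2.20 and 1.07) and 4732440D04Rik (-2.57 and -0.92). For some it was larger in AHRVav1, as for 1700029P11Rik (-2.54 and -3.38) and Tnfaip8l3 (-2.34 and -2.90). None of the 24 was called for the difference between the genotypes. Vwf had 2.87 and 0.78, Cdkn1c 1.33 and -0.25, and Mpo 2.56 and 1.21, but the difference between the genotypes was not called for these (limma adjusted p = 0.585, 0.665 and 0.501 over all probe sets).

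In the test of that difference itself, over all 22 arrays, 3 probe sets passed (0.0112%), and 2117 had an unadjusted p under 0.05. Rassf5, a Ras effector of lymphocyte adhesion, had an age difference of 2.08 in AHRFX and -0.25 in AHRVav1 (difference 2.34, limma adjusted p = 0.0211). Ppm1h, a protein phosphatase, had 2.60 and -0.71 (difference 3.31, limma adjusted p = 0.0211). A probe set with no single gene symbol had -1.47 and 2.27 (difference -3.73, limma adjusted p = 0.0211). Rassf5 and Ppm1h exceeded background in all 6 AHRFX arrays of 18 months and in none of 2 months. The number called was 0 without AHRVav1 animal 1 or 2 of 18 months or without AHRFX animal 3 or 4 of 18 months, 1 without AHRVav1 animal 4 or AHRFX animal 1 of 18 months, and 7 to 13 without any single AHRVav1 animal of 2 months or without AHRFX animal 2, 4 or 5 of 2 months. With 5 or 6 animals a group, an age effect that did not pass in this test is not shown to be alike in the genotypes.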

How the data were processed

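The authors computed the deposited intensities with IterPLIER, as background-subtracted and quantile-normalized linear values, and per the labels in Affymetrix Expression Console. The sources used here name no probe set filter, software version or array run. Arrays hold no read depth, so their number, 6 and 5, limits the precision.

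Intensities were transformed as log2(signal + 16). The 11 AHRFX arrays were tested with limma 3.58.1 in R 4.3.3 (lmFit, eBayes with a mean-variance trend, no covariate) and p-values adjusted by Benjamini-Hochberg over 26688 probe sets and called below 0.05. The age effects of the genotypes were compared by an interaction contrast over 22 arrays. Platform annotation gave 23321 probe sets 1 symbol, 1802 several and 1565 none. Named genes were Ahr and sort genes, the 12 leading genes each way above background in all arrays without overlap, up to 8 each way detected at 1 age alone, the members of smallest p in each list, and textbook aging genes. Members and lists were chosen with earlier results of these data known. The scripts were tested on simulated data.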

Additional observations from a re-analysis of the deposited data

Results flagged for a closer look

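Of 446 groups of values (223 named probe sets at 2 ages), 28 held an array whose gap to the nearest other array passed Dixon's 95% value, where chance flags about 1 in 20. At 18 months the arrays standing apart on the high side were animal 4 for Snora44 (signal 226), animal 5 for Bub1b (579) and animal 2 for Nfkb2 (99.8). On the low side they were animal 5 for Hoxb5 (43.2) and Igll1 (8.10), animal 1 for Brip1 (63.9), Itgal (54.8) and Tfrc (140.1), animal 6 for Plagl1 (33.4), animal 3 for Tiparp (25.6) and animal 2 for Cd28 (16.8).

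At 2 months, animal 5 was low for Rny3 (368) and animal 2 for Snhg20 (808). The others stood apart on the high side. These were animal 1 for Ccne1 (72.9), Arid3a (117), Esrrg (126) and Ms4a2 (22.5), and animal 2 for Cdkn1c (28.0), Nr4a2 (18.9), Il2rb (38.7) and Cldn5 (32.8). Animal 3 was high for Bmpr1a (2.50), Rps29 (4543), Arhgap5 (33.6), Vcam1 (17.5) and Csf2rb (219), animal 4 for Ehd3 (28.7) and animal 5 for Arnt (123). Of these high values, those of Rps29, Csf2rb, Arnt, Arid3a and Esrrg exceeded the background level of their array.

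The age effect differed between AHRFX and AHRVav1 by the interaction test for Rassf5 (2.34), Ppm1h (3.31) and an unnamed probe set (-3.73), with the values of each genotype given above.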

How the results depend on the processing

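The count of 11850 called probe sets became 6976 with a variance for each age and no moderation, 6185 among the brighter 13344 probe sets (3705 higher and 2480 lower, median 0.41) and 7097 with a replicate block (3988 and 3109). With array weights 5083 were higher and 4818 lower, so in these 3 settings higher calls outnumbered lower ones. Numbers of the ages did not pair the animals (residual correlations of -0.04 to 0.00). Leaving out 1 array gave 9578 to 12161. Quantile normalization again called 4710 higher and 8651 lower, and centring on detected probe sets 4895 and 8893 (35.3% and 35.5% higher, against 45.4%), with medians of -0.20 and -0.21 against -0.11. Among probe sets above background in all arrays the count of 1578 became 764 with the replicate block, 2515 (627 higher, 1888 lower) at the 90th percentile, 516 at the 99th, 1269 to 1593 without 1 array, and 1029 without 18-month animals 1 and 2, an alternative chosen after earlier results were seen. The 3 probe sets of the interaction became 5 without a trend, 6 with array weights, and 0 to 13 without 1 array. Of 215 named probe sets called, 202 were called in every fit that left out 1 array, 199 without 18-month animals 1 and 2, and 179 with a variance for each age. None of these 215 named probe sets changed direction, and the direction of other called probe sets was not followed. Medians near 0 changed sign when 1 array was left out. This held for LT-HSC identity (-0.06 to 0.09), imprinted (-0.07 to 0.06), polarity and Wnt (-0.12 to 0.15), B cell (-0.15 to 0.04) and endothelial genes (-0.09 to 0.18). With the replicate block, Mcpt8, Myc, Wnt4, Hmga2, Cdkn2a, Hlf, Hoxb5 and Esam were among the genes whose call was lost.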
